A study of Homo sapiens with 6 samples.

Results

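The transcripts of 10 genes of bone morphogenetic protein (BMP) signaling were followed in cardiomyocyte-derived cells after CIRBP knockdown. They were the ligands BMP2 and BMP4, the secreted antagonists GREM1 (gremlin 1) and NOG (noggin), the inhibitors of DNA binding ID1, ID2, ID3 and ID4, and the inhibitory SMADs SMAD6 and SMAD7. These genes were chosen by name, and each was found as a single row among the 58884 genes of the table. RNA-seq libraries had been made from cells transfected with NC siRNA (3 libraries, NC_1 to NC_3) or with siRNA against CIRBP, a cold-inducible RNA-binding protein (SiCIRBP, 3 libraries). All libraries came from total RNA of this 1 line, and the labels name no treatment other than NC or CIRBP. The labels give the cells as T0519, immortalized human cardiomyocytes, whereas the study's text names the related ventricular line AC16 for this experiment. Nothing in the labels shows that the 3 libraries of a group came from separate cultures, so the p-values measure the spread between these libraries, which may be technical.

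BMPs bind pairs of type I and type II receptor kinases, which phosphorylate SMAD1, SMAD5 and SMAD9, and these enter the nucleus with SMAD4 to activate transcription. The ID genes are among the best known direct targets. Their products are helix-loop-helix proteins without a DNA-binding region that capture E proteins such as TCF3, TCF4 and TCF12 and keep them off DNA. SMAD6 and SMAD7 are induced by the same signals and inhibit the receptors in return, SMAD6 mainly on the BMP branch and SMAD7 on both the BMP and TGF-beta branches. GREM1 and NOG bind BMP ligands outside the cell. In the heart, BMP2 and BMP4 are known for their part in specifying cardiac progenitors and in forming the valves.

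Library totals ranged from 25726259 to 29919566 estimated counts. The targeted CIRBP transcript was at 86.4, 85.8 and 91.0 counts per 1000000 counts of normalized library size (CPM) in NC_1, NC_2 and NC_3, and at 54.8, 24.3 and 46.3 in SiCIRBP_1, SiCIRBP_2 and SiCIRBP_3. The study left out NC_1 and SiCIRBP_2 on the basis of how libraries correlated and grouped. Its 4 remaining libraries were therefore fitted first and all 6 beside them. In SiCIRBP_2, all 34 interferon-stimulated genes of a list were above the NC mean, with a median log2 difference of 3.30. In SiCIRBP_1 that median was -0.76 and in SiCIRBP_3 it was 0.52, while each NC library set against the other NC libraries gave -0.05 to 0.04. Of 14 cardiomyocyte markers, 10 were below 1 TPM, the length-scaled transcript share per 1000000 transcripts, in every library and 5 of those were at 0 throughout, while GATA4, NKX2-5 and ACTN2 exceeded 1 in every library. The markers summed to between 72.7 and 89.6 TPM in the NC libraries and to between 41.0 and 61.1 in the SiCIRBP libraries. Of 9 fibroblast and mesenchymal markers, 8 exceeded 1 TPM in every library, with sums from 3758 to 5328 TPM over all libraries. VIM alone was at 2724 to 3663 TPM. The 4 epithelial markers summed to between 966 and 1621 TPM, with KRT18 alone at 938 to 1608 TPM. The 4 smooth muscle markers summed to between 147 and 1254 TPM. These sums therefore do not single out 1 cell type. In such bulk samples, fewer cells of a type and less RNA per cell cannot be told apart.

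The windows around the start sites of ID1, ID2, ID3 and BMP4 are shown because the ID results below turn on how these 3 targets differ, and because BMP4 is the expressed ligand. They were taken from RefSeq on GRCh38.p14, from 250 bases before to 50 bases after the start, and are written 5′ to 3′ on the strand of the gene. They lie at chr20:31605039-31605338 (plus strand, ID1), chr2:8681806-8682105 (plus, ID2), chr1:23559452-23559751 (minus, ID3) and chr14:53955001-53955300 (minus, 1 of 3 windows of BMP4). Capitals mark GGCGCC, a GC-rich sequence that BMP-activated SMADs can bind, and the E-box CANNTG, to which dimers of E proteins bind.
ID1: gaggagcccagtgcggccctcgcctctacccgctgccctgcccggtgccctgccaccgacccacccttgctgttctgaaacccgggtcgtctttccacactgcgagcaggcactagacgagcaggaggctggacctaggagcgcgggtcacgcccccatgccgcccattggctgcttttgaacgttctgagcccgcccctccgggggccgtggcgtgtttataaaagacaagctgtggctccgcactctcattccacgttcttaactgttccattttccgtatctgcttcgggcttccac
ID2: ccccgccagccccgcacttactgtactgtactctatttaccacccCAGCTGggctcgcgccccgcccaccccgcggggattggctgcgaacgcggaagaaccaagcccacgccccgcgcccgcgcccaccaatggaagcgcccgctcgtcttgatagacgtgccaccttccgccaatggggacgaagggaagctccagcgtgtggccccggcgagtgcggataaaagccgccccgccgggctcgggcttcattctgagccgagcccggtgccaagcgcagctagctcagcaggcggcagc
ID3: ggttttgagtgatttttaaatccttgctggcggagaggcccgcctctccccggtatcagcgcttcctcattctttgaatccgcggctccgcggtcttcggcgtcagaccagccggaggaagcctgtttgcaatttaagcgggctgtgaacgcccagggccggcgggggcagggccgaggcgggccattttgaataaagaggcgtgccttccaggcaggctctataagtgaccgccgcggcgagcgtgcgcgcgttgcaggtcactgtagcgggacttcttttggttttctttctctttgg
BMP4: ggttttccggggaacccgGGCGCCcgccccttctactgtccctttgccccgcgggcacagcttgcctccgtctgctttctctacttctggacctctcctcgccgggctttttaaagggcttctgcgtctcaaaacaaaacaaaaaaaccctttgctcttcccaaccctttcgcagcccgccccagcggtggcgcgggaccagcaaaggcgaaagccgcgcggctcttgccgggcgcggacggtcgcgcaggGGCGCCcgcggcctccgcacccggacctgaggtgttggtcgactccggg
Motifs were searched on both strands, where GGCGCC and CANNTG each read the same, and the motifs did not overlap each other in these windows. The ID2 window holds a single E-box that begins at offset -205, the first transcribed base being offset 0, and the ID1 and ID3 windows hold neither motif. This BMP4 window holds GGCGCC from offset -232 and again from offset 1. The BMP4 windows not shown hold no GGCGCC, and that at chr14:53953346-53953645 holds an E-box from offset -83. Of 35116 RefSeq windows of this length, 19.2% hold GGCGCC and 68.7% hold an E-box. These matches describe the letters only. Bases outside the windows were not searched, so a window without a motif does not show that the gene lacks one.

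Per unit of length, ID3 and ID1 were the most abundant members and BMP2 the least. ID3 had the highest level, between 520 and 1023 TPM over the 6 libraries. ID1 followed at 276 to 437 TPM and was below ID3 within each of the 6 libraries. ID2 was at 48.6 to 95.9 TPM, and its range overlapped that of SMAD6 at 42.7 to 72.4 TPM, with ID2 the higher in 4 of 6 libraries. BMP4 was the only ligand of the pair with an appreciable level. It was at 28.6 to 46.1 TPM, and SMAD6 was above it in 5 of 6 libraries, the exception being SiCIRBP_2. SMAD7 ranged from 20.7 to 27.2 TPM and ID4 from 9.4 to 13.3 TPM, and neither range met that of a neighbor. The antagonists were close to the limit of detection. GREM1 reached 0.62 TPM and NOG 0.55 TPM at most, and their ranges overlapped, while BMP2 did not exceed 0.03 TPM.

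**Figure D1:**
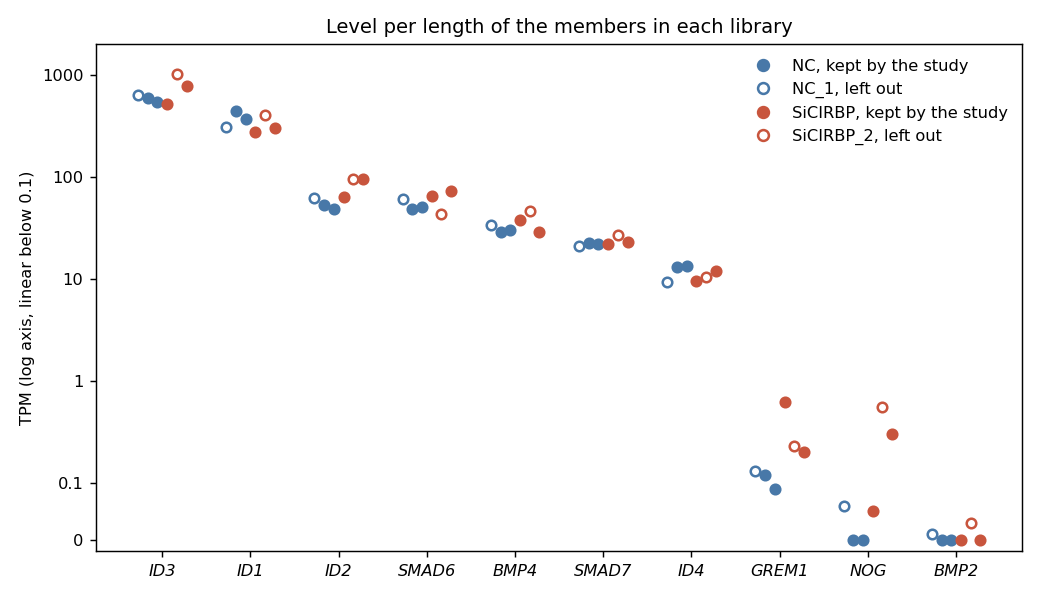
TPM of the 10 members in each of the 6 libraries, on a log axis that is linear below 0.1; every point is a library, and open points are the libraries the study left out. ID3 and ID1 sit between 276 and 1023 TPM, whereas GREM1, NOG and BMP2 stay under 1 TPM in every library.

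Of the 10 members, 8 passed the expression filter and could be tested, and BMP2 and NOG did not. Over the 4 libraries kept by the study, ID2 and SMAD6 were higher in the SiCIRBP group and none of the 8 was lower (quasi-likelihood test of edgeR, adjusted p under 0.05 by Benjamini-Hochberg over all genes). In this fit 19.4% of all 15421 genes were called, 9.62% higher and 9.76% lower, so that 2 of 8 members is a share near the background and is not a result about these genes. No member was called with a change of at least 2-fold, a rule that 3.62% of all genes met. The median log2 fold change of the 8 was 0.27, against a median of -0.00 over all genes tested, and the median of its size was 0.32 against 0.30. Over all 6 libraries, edgeR called 0 of the 8 members and 0% of 15217 genes. ID2 and GREM1 were the 2 members with an unadjusted p under 0.05 in that fit, as were 23.7% of all genes. DESeq2 over the same 6 libraries called 1 of 8 members, ID2, and 9.3% of 14421 genes. Over the 4 libraries, DESeq2 called ID2 and SMAD6 as higher and ID1 as lower, 3 of 7 members against 23.3% of 12663 genes. With no filter on low counts, edgeR over the 4 libraries called 5 of 9 members, 4 of them higher, against 17.4% of 26574 genes called and 7.99% called higher (9.38% lower). With the replicate number as a block over 6 libraries, it called 0 of 8 members and 0.00657% of all genes. 

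**Figure D2:**
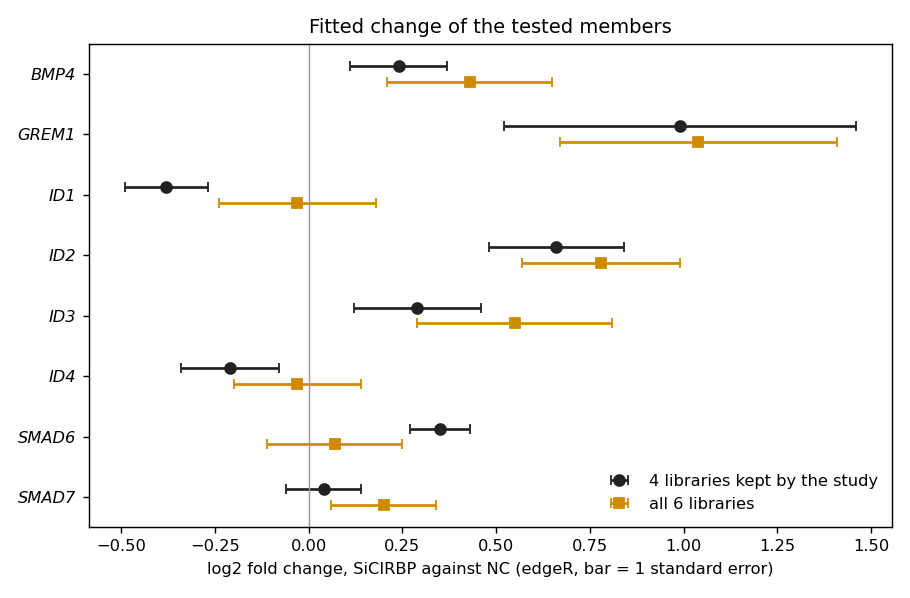
Log2 fold change of the 8 tested members, SiCIRBP against NC, from edgeR over the 4 kept libraries (circles) and over all 6 (squares), with bars of 1 standard error. ID2 lies at 0.66 and 0.78, while SMAD6 moves from 0.35 to 0.07 and ID1 from -0.38 to -0.03 when NC_1 and SiCIRBP_2 are included.

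ID2, an inhibitor of E proteins that BMP and other signals induce, was called over 4 libraries and kept its groups apart over 6. Its normalized count was 33.2, 30.5 and 26.5 CPM in the NC libraries and 36.8, 65.4 and 53.1 in the SiCIRBP libraries, numbered 1 to 3 in each group. Every SiCIRBP library was above every NC library, although SiCIRBP_1 exceeded NC_1 by little. ID2 rose by 0.66 on the log2 scale over the 4 libraries (standard error 0.18, adjusted p = 0.0499 from edgeR), a fold of 1.58 that lay at the edge of the threshold. With all 6 libraries it had a log2 fold change of 0.78 and a standard error of 0.21, with an adjusted p of 0.111 in edgeR and of 0.0159 in DESeq2. The mean of log2(CPM + 1) was 0.73 higher in the SiCIRBP group, with p = 0.1 by exact two-sided permutation, which is as low as 3 against 3 libraries can go. GREM1 was the other of 8 tested members whose groups did not overlap over 6 libraries, beside 32.9% of all genes, 16.2% higher and 16.6% lower. The call of ID2 was lost without NC_2 (adjusted p = 0.165, edgeR) or without NC_3 (adjusted p = 0.317, edgeR).

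ID1, the most studied BMP target of the family, did not follow ID2. It was at 179, 254 and 211 CPM in the NC libraries and at 171, 274 and 186 in the SiCIRBP libraries. NC_1 lay beside SiCIRBP_1 and SiCIRBP_3, and the highest value of all was that of SiCIRBP_2, so the groups overlapped. Over the 4 kept libraries its log2 fold change came to -0.38 (standard error 0.11), with an adjusted p of 0.0527 in edgeR and 0.0138 in DESeq2. Including NC_1 and SiCIRBP_2 brought it to -0.03 (standard error 0.21, adjusted p = 0.939, edgeR).

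ID3 was at 337, 310 and 280 CPM in the NC libraries and at 290, 641 and 430 in the SiCIRBP libraries. SiCIRBP_2 and SiCIRBP_3 were above all NC libraries and SiCIRBP_1 was among them. Its log2 fold change came to 0.29 (standard error 0.17, adjusted p = 0.277) over 4 libraries and 0.55 (standard error 0.26, adjusted p = 0.234) over 6, both from edgeR. ID1, ID2, ID3, SMAD7 and NOG were each lowest in SiCIRBP_1 and highest in SiCIRBP_2 within their group. The tested members BMP4, GREM1, ID4 and SMAD6 had other orders. How many of all genes share the order of ID2 was not counted, so it is no result about the members. The interferon-stimulated genes had the order of ID2 as well (median log2 differences of -0.76, 0.52 and 3.30). CIRBP had the reverse order, at 54.8, 46.3 and 24.3 CPM in SiCIRBP_1, SiCIRBP_3 and SiCIRBP_2. The interferon and CIRBP orders cannot be told apart here, and the part of either in the members' values was not tested. ID4, the least abundant of the family, was at 26.4, 36.6 and 36.1 CPM in the NC libraries and 27.9, 34.5 and 34.9 in the SiCIRBP libraries. The lowest library of each group had the number 1, and the groups overlapped. The log2 fold change of ID4 was -0.21 (standard error 0.13) over 4 and -0.03 (standard error 0.17) over 6 libraries, with adjusted p-values of 0.296 and 0.939 in edgeR.

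**Figure D3:**
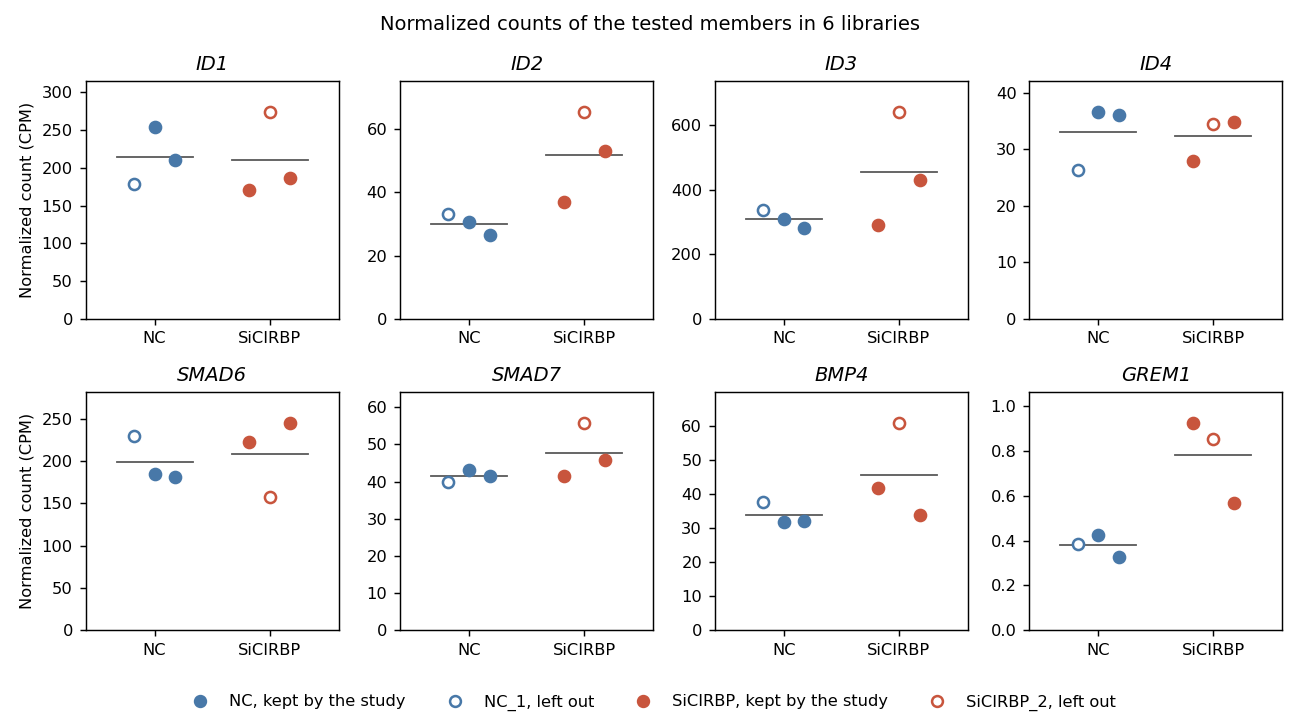
Normalized counts (CPM, axes from 0) of the 8 tested members in each library, with NC in blue and SiCIRBP in red, open points for the libraries the study left out and a line at the mean of 3. ID2 and GREM1 are the 2 members whose SiCIRBP points all lie above their NC points, and SiCIRBP_2 is the highest point for ID1, ID2, ID3, SMAD7 and BMP4.

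Ratios within a library need no scaling between libraries, and those given here were chosen after the values were seen. The log2 ratio of ID2 to ID1 counts averaged -2.83 ± 0.35 (SD, n = 3) over NC and -2.03 ± 0.21 (SD, n = 3) over SiCIRBP libraries, a difference of 0.80 without overlap (p = 0.1 by exact two-sided permutation). The log2 ratio of ID2 to ID3 averaged -3.36 ± 0.03 (SD, n = 3) over NC and -3.10 ± 0.17 (SD, n = 3) over SiCIRBP libraries, also without overlap (p = 0.1 by exact two-sided permutation). For ID3 to ID1, the ratio of 0.92 in NC_1 exceeded that of 0.77 in SiCIRBP_1, and the group means of 0.54 and 1.07 gave p = 0.2 by exact two-sided permutation. ID4 to ID1 had means of -2.70 and -2.67. In TPM, the ratio of ID2 to ID1 again did not overlap between the groups, whereas that of ID2 to ID3 did, since SiCIRBP_2 lay below NC_1.

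SMAD6 rose over the 4 kept libraries but not over all 6. Its values were 230, 185 and 181 CPM in the NC libraries and 223, 158 and 245 in the SiCIRBP libraries. NC_1 was the second highest and SiCIRBP_2 the lowest of all, so both libraries that the study left out went against the difference between the others. SMAD6 rose by 0.35 on the log2 scale over the 4 libraries (standard error 0.08, adjusted p = 0.0309, edgeR), a fold of 1.28, and had 0.07 over 6 (standard error 0.18, adjusted p = 0.836, edgeR). The call of SMAD6 was also lost without NC_2 (adjusted p = 0.231, edgeR) or without NC_3 (adjusted p = 0.307, edgeR). SMAD7 was at 39.8, 43.2 and 41.6 CPM in the NC libraries and 41.5, 55.7 and 45.9 in the SiCIRBP libraries. SiCIRBP_2 and SiCIRBP_3 were above the NC values and SiCIRBP_1 was within them. Its log2 fold change came to 0.04 (standard error 0.10, adjusted p = 0.782) and 0.20 (standard error 0.14, adjusted p = 0.398) over 4 and 6 libraries in edgeR.

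The quotient of count and TPM reflects the transcript length that the counting assigned to a gene in a library, and it was scaled in each library by its median over 9437 genes. For SMAD6 the log2 quotient relative to the NC mean was 0.01, 0.02 and -0.03 in the NC libraries and -0.19, -0.25 and -0.21 in the SiCIRBP libraries. The implied length of SMAD6 was thus shorter in every SiCIRBP library, by a mean log2 difference of -0.22, including SiCIRBP_2 where its count was lowest. A difference of more than 0.2 in size was seen for 7.42% of the genes, and the median size was 0.04. SMAD6 has 5 annotated transcripts in GENCODE 29, 2 of them protein-coding. For SMAD7, with 8 annotated transcripts, the quotient was -0.12, -0.16 and -0.02 in the SiCIRBP libraries, a mean difference of -0.10. For ID1, ID3 and ID4 all 6 values lay within -0.02 and 0.02 after this scaling. Without it their CPM and TPM differed, and the mean log2 difference of ID1 between the groups was -0.05 in CPM and -0.18 in TPM, with SiCIRBP_2 the highest library in CPM and NC_2 in TPM. ID2 ranged from -0.07 to 0.06 and BMP4 from -0.09 to 0.03. The quotient was 0.40 higher for CIRBP itself in the SiCIRBP group.

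BMP4, the only abundant ligand among the members, was at 37.5, 31.7 and 32 CPM in the NC libraries and at 41.7, 60.7 and 33.7 in the SiCIRBP libraries. SiCIRBP_2 stood well above all others, and NC_1 was above SiCIRBP_3. Its log2 fold change came to 0.24 (standard error 0.13, adjusted p = 0.221) over the 4 libraries and 0.43 (standard error 0.22, adjusted p = 0.264) over 6 in edgeR. BMP2 had 1 count in NC_1, 2 counts in SiCIRBP_2 and 0 in the other 4 libraries. A count of 0 allows up to 3 counts, which was 0.098 to 0.12 CPM in these libraries, and a difference in BMP2 was not detectable at this depth.

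Both antagonists had few counts, with more in the SiCIRBP group. GREM1 had 11, 11 and 10 estimated counts in the NC libraries and 27, 22 and 16 in the SiCIRBP libraries, with no overlap. The ratio of the summed counts per effective library size was 2.08 (95% exact interval 1.34 to 3.28, counting error only). In edgeR its log2 fold change came to 0.99 (standard error 0.47, adjusted p = 0.176) over 4 and 1.04 (standard error 0.37, adjusted p = 0.155) over 6 libraries, so GREM1 did not pass the threshold. NOG had 2, 0 and 0 counts in the NC libraries and 2, 21 and 11 in the SiCIRBP libraries. SiCIRBP_1 did not differ from NC_1, and the ratio of summed counts, 17.4 (95% exact interval 4.45 to 149, counting error only), rests on SiCIRBP_2 and SiCIRBP_3. For NOG, the means of log2(CPM + 1) over 3 and 3 libraries differed with p = 0.2 by exact two-sided permutation.

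Other genes were taken from lists by role. Besides BMP signaling and the partners of ID proteins, the lists covered TGF-beta genes (13 tested) and interferon-stimulated genes (34 tested). Of 127 listed genes outside the members, 101 were tested over the 4 libraries, and 3 were higher and 17 lower in the SiCIRBP group (edgeR, adjusted p under 0.05). This is 19.8% of those tested, beside 19.4% of all genes, which were split into 9.62% higher and 9.76% lower. The calls in the lists were thus mostly lower, unlike those over all genes, and this imbalance was not tested. The TGF-beta list held 4 of the lower calls and the interferon list 3, and neither held a higher call. Over all 6 libraries edgeR called 0 of 100, and DESeq2 called 1 as higher and 6 as lower. None of 5 other tested BMP ligands passed the test. Of 10 receptors and co-receptors, 2 were lower. ACVR1, a type I BMP receptor, was at 74.8, 112 and 116 CPM in the NC libraries and 56.7, 28.9 and 47.7 in the SiCIRBP libraries. ACVR1 fell by 1.13 on the log2 scale over the 4 libraries (standard error 0.11, adjusted p = 0.00465, edgeR) and had -1.19 (adjusted p = 0.0975, edgeR) over 6. ACVR2B, a type II receptor, had -0.65 (adjusted p = 0.0496, edgeR) over 4 libraries and -0.44 (adjusted p = 0.252, edgeR) over 6. It did not exceed 7.25 CPM in any library, and NC_1 at 4.91 CPM was below SiCIRBP_2 at 5.02 CPM. BMPR1A and BMPR2, BMP receptors that like ACVR1 were well expressed, had log2 fold changes of -0.03 and -0.08. Among 10 antagonists and modulators, BMPER, a secreted BMP-binding protein, was higher (log2 fold change 1.11, adjusted p = 0.0387, edgeR). CRIM1, a membrane protein that binds BMPs, was lower (log2 fold change -0.80, adjusted p = 0.00808, edgeR).

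Inside the cell, 3 of 13 SMADs and regulators other than the members were lower over the 4 libraries and none was higher. The shares of all genes were 9.76% lower and 9.62% higher. The member SMAD6, of the same list, was called higher in this fit. The difference between the directions was not tested. The lower genes included SMURF2, a ubiquitin ligase that acts with the inhibitory SMADs, at -0.60 (adjusted p = 0.00828, edgeR). ZNF423, a zinc finger partner of SMADs, was another at -0.71 (adjusted p = 0.0232, edgeR). SMURF2 in SiCIRBP_2 was at 131 CPM, the level of NC_2. The signaling SMADs SMAD1, SMAD5, SMAD9 and SMAD4 had log2 fold changes of -0.53, -0.25, -0.34 and -0.21, none of which passed the test. Of 10 other target genes, HEY2 and HES1, transcriptional repressors better known as Notch targets, were lower at -1.48 (adjusted p = 0.0173, edgeR) and -0.70 (adjusted p = 0.0454, edgeR). HEY2 did not exceed 4.3 CPM in any library. HES1 was at 8.17 CPM in SiCIRBP_2, above NC_1 at 8.06 CPM, and had -0.44 (adjusted p = 0.265, edgeR) over 6 libraries. Of 6 helix-loop-helix factors, TCF4, an E protein held by ID proteins, fell at -1.02 (adjusted p = 0.00544, edgeR). TCF4 was between 30 and 40.4 CPM in the NC libraries and between 17.3 and 20.6 in the SiCIRBP libraries. Of the other E proteins, TCF3 was higher at 0.55 and TCF12 lower at -0.36 (adjusted p = 0.0134 and 0.0341, edgeR).

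In the TGF-beta list, 4 of 13 genes were lower and none was higher, beside 9.76% and 9.62% of all genes. CCN2, a matrix protein induced by TGF-beta and other signals, fell at -1.68 (adjusted p = 0.00605, edgeR), from between 530 and 1026 CPM in the NC libraries to between 237 and 357 in the SiCIRBP libraries. TAGLN, a smooth muscle actin-binding protein, was lower at -0.77 (adjusted p = 0.0463, edgeR) over the 4 libraries but at 863 CPM in SiCIRBP_2, against 190 to 213 in the NC libraries, and had 0.87 (adjusted p = 0.469, edgeR) over 6. Of the 34 interferon-stimulated genes, 3 were lower over the 4 libraries. IFITM1, an antiviral membrane protein, was among them at -0.83 (adjusted p = 0.00903, edgeR), but had 316 CPM in SiCIRBP_2 against 81.1 to 104 in the NC libraries. Of the 12 listed genes with the largest called change, 7 had groups that did not overlap over all 6 libraries, namely CCN2, HEY2, ACVR1, BMPER, TCF4, CRIM1 and ZNF423, beside 32.9% of all genes (16.2% higher and 16.6% lower). They were picked on 4 of these libraries, so this is no independent check.

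**Figure D4:**
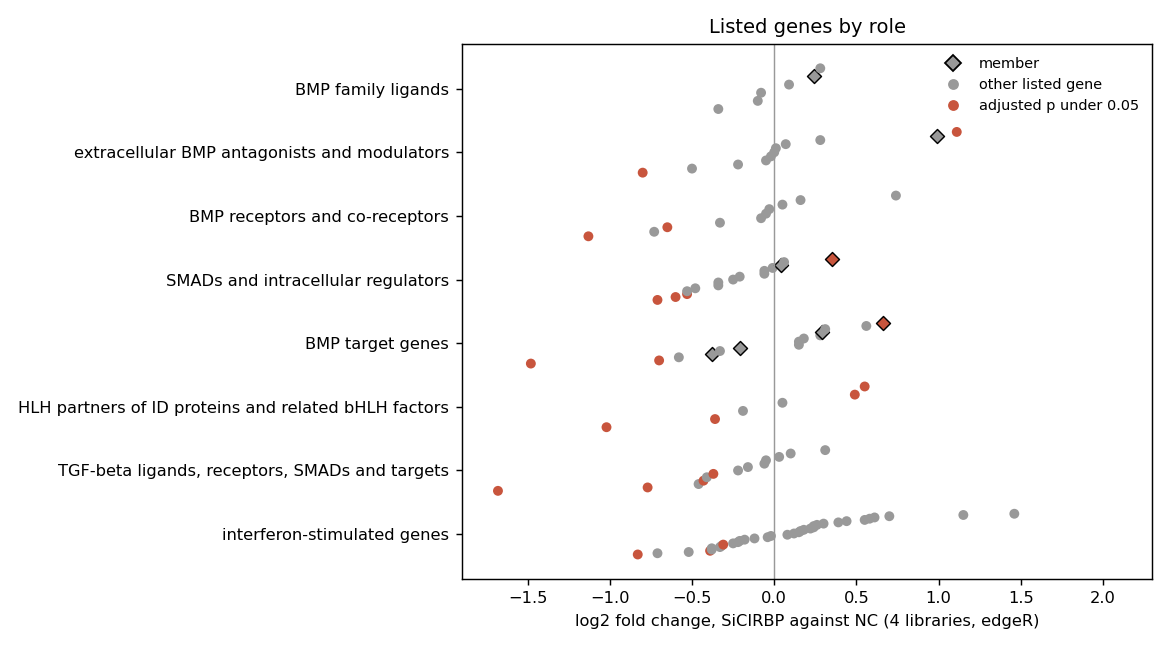
Log2 fold change, SiCIRBP against NC over the 4 kept libraries (edgeR), of each tested gene of 8 lists by role; diamonds are members, circles other listed genes, and red marks an adjusted p under 0.05. ID2 and SMAD6 are the red diamonds, at 0.66 and 0.35, and CCN2 at -1.68 is the leftmost point.

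The genes whose profile over the 6 libraries was most like that of a member were sought among 6061 genes, by the root mean square difference of log2(CPM + 1) after centring each gene on its own mean. For ID2 they included RHOC (0.065) and TMSB4X (0.080), beside a range of 1.27 for ID2 itself. For ID3 they were HSPB1 (0.048), GNG2 (0.051) and TAP2 (0.071), with a range of 1.19 in ID3. None of these was a gene nearest to ID1, whose list was SPRY4 (0.055), SPECC1 (0.084) and RIN3 (0.087) with a range of 0.68. BMP4, with a range of 0.92, lay closest to FKBP5 (0.032), PPIL1 (0.047) and DEPDC1B (0.056). SMAD6, with a range of 0.63, lay closest to CYB5B (0.042), STAG3L5P-PVRIG2P-PILRB (0.048) and POLR2J (0.058). SMAD7 and ID4 varied least, by 0.47 and 0.46. The nearest genes were SHOC2 (0.032), RPL23A (0.037) and COPS2 (0.039) for SMAD7, and UTP25 (0.066), TCF7L1 (0.075) and FAM76B (0.114) for ID4. These are descriptions over 6 libraries, and the pool shares the same libraries and scaling.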

How the data were processed

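RNA-seq was done on total RNA of 3 NC and 3 SiCIRBP libraries, grouped and numbered by their labels. The processing notes name fastp, HISAT and RSEM on hg38, with versions and annotation release not given in the sources used here. The authors deposited an estimated count per gene and library, of which 87.3% are whole numbers (tolerance 1e-09), and a TPM value per gene and library. Gene lengths and group means of TPM were deposited too, as were fold changes and p-values of the authors' own DESeq2 comparisons, and none of these entered a result. Totals were 25726259 to 29919566 counts, and counting error is small for the members except GREM1, NOG and BMP2.

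Rounded counts entered edgeR 4.0.16 under R 4.3.3 (TMM, filterByExpr, glmQLFit and glmQLFTest), with Benjamini-Hochberg adjustment over all genes tested and a threshold of 0.05. The study's 4 libraries were the main fit, with a second fit of all 6. Each standard error was taken as the absolute log2 change over the root of its F statistic. CPM values use the TMM factors of the 6-library fit. Single members were compared by exact permutation of log2(CPM + 1). The alternatives were DESeq2 1.42.0, limma 3.58.1 on log2(TPM + 1) and log2(TPM + 0.1), RLE size factors, other filters, the replicate block and leaving out libraries. The edgeR and DESeq2 fits were tested on simulated data. The changes planted there were larger than those fitted for the tested members, in genes with higher counts than GREM1. That test therefore does not cover changes of the members' size. Members and lists were chosen with earlier results of these data known. The text names all members, CIRBP, of the listed genes the 12 with the largest change among the 20 called, and for each member over 10 CPM the 3 genes of most similar profile among those over 10 CPM that varied by at least 0.5 (log2), of which 1 is not reported here; TCF3, TCF12, BMPR1A, BMPR2 and the signaling SMADs were named after their values were seen. Positions and transcripts are from GENCODE 29 on GRCh38, windows from RefSeq. ID2-AS1 and AL022068.1 overlap ID2 and ID4 on the opposite strand, with at most 10 and 11 counts, and the strand setting of the counting is not given in the sources used here.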

Additional observations from a re-analysis of the deposited data

How the results depend on the processing

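The count of members called higher, 2 over the 4 libraries, was 0 over all 6 libraries, 0 with the replicate block, 1 with DESeq2 over all 6, 0 with limma on either TPM scale and 4 with no filter on low counts (ID2, ID3, SMAD6 and NOG). Leaving out a library gave 0 to 3. The count of members called lower, 0 over the 4 libraries, was 1 with DESeq2 over 4 libraries, with at least 10 counts in every library, with limma on log2(TPM + 0.1) and with no filter, each time ID1, and 0 to 2 with a library left out. Of the other listed genes, 3 were higher over the 4 libraries, against 0 over all 6, 0 with the replicate block, 1 with DESeq2 over all 6, 0 with limma on either TPM scale, 13 with no filter and 0 to 31 with a library left out. The 17 lower ones became 0 over all 6, 0 with the replicate block, 6 with DESeq2 over all 6, and 0 to 54 with a library left out, while limma gave 13 on log2(TPM + 0.1) and 12 on log2(TPM + 1), DESeq2 over 4 libraries, RLE and at least 10 counts in every library each gave 16, and no filter gave 25. Without SiCIRBP_1 or SiCIRBP_3, the lone SiCIRBP library is assumed to vary like NC_2 and NC_3, and 7048 and 6418 genes of all tested were called, against 168 and 64 without NC_2 or NC_3. Over all genes, the 6-library fit called 1118 without SiCIRBP_2 and 18 without NC_1.

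Single members changed sign as follows. ID1 was at 0.11 over 6 libraries without NC_2, 0.11 without SiCIRBP_1 and 0.06 without SiCIRBP_3. ID4 was at 0.05 without NC_2, 0.04 without NC_3 and 0.08 without SiCIRBP_1, and SMAD6 at -0.06 without SiCIRBP_3, again over 6. Over 4 libraries without SiCIRBP_3, ID3 and SMAD7 were at -0.03, whereas ID3 reached 0.54 without SiCIRBP_1. None of the 9 values with a turned sign passed the test, and the causes were not tested. ID2, BMP4 and GREM1 kept their direction in all 19 alternatives, between 0.37 and 0.99, 0.07 and 0.61, and 0.34 and 1.29. With the replicate block over 6 libraries, ID2 was at 0.75 (adjusted p = 0.166, edgeR). Libraries of the same number did not deviate together, the correlations of their deviations over genes being -0.118 (number 1), 0.006 (number 2) and -0.026 (number 3). Each deviation was taken from a mean of only 3 libraries, so this cannot settle whether the numbers pair the samples. The labels do not say. RLE scaling moved the median of all genes by 0.003.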
